A study of Mus musculus with 4 samples.

Results

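Open chromatin was examined at 10 genes of cartilage hypertrophy and of the Runx pathway in mouse rib chondrocytes, out of 22238 protein-coding genes of the NCBIM37 (mm9) annotation. They were chosen by name: Col10a1, Alpl and Spp1, products of maturing cartilage, the transcription factors Runx1, Runx2 and Runx3 with their partner Cbfb, and the regulators Mef2c, Mef2a and Hdac4. ATAC-Seq uses the Tn5 transposase to place sequencing adapters in accessible DNA, and MACS2 calls a peak where inserted tags pile up over the local background. A peak was assigned to a promoter when its summit lay within 1 kb of an annotated transcription start site (TSS), and to a locus when its summit lay in the gene body or within 50 kb on either side. The peak value used is fold enrichment, the ratio of tags at the summit to background with 1 added to both.

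There were 4 libraries of primary chondrocytes from the rib cartilage of newborn C57BL/6J mice. Cho had 2 replicates, Cho 1 and Cho 2, for which the labels give no genotype. WT and E160(delta/delta);E308(delta/delta), called the deletion library here, had 1 library each. The deletion mice lacked E160 and E308, elements upstream of Sox9 on chromosome 11, in every cell, after CRISPR/Cas9 editing of embryos in 2 steps, and the study describes them and WT as littermates used regardless of sex. With 1 library per genotype, WT and deletion values set these libraries beside each other rather than the genotypes, and no test was possible. None of the 10 genes lies on chromosome 11.

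The lists held 76242 peaks in Cho 1, 148330 in Cho 2, 90971 in WT and 169591 in deletion. Depth from the background was 6841, 20816, 4622 and 8697 tags per Mb in the same order. Cho 2 was read in GRCm38 (mm10) positions and the other lists in mm9, so its peaks were set beside the others by their distance from a start found in both builds. E308 overlapped 2 peaks in WT, with a highest fold enrichment of 15.4, and 1 in deletion, at 3.07, while E160 overlapped 2 WT peaks and 0 deletion peaks. The study describes the peaks of both elements as undetectable in the deletion mice. The source of the weak E308 peak in the deletion list was not tested. Of 8 chondrocyte markers, 7 had a promoter peak in WT and deletion, 4 in Cho 1, and 5 of the 5 genes present in the RefSeq table in Cho 2. Such a peak was common, at 59.0% of protein-coding genes in Cho 1, 65.9% in Cho 2, 62.6% in WT and 68.2% in deletion. Promoter peaks of other cell types were at 1 to 3 of the osteoblast markers (3 genes in the Cho 2 table, 4 elsewhere), at 0 or 1 of the blood, muscle and epithelial markers, and at 1 or 2 of the endothelial markers, where Tek was called in every library. The part of such cells in the values below was not tested.

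Growth plate chondrocytes divide, enlarge and become hypertrophic before bone replaces the cartilage. Col10a1 encodes collagen X, the defining matrix product of hypertrophic cells. Alpl encodes tissue-nonspecific alkaline phosphatase, which frees phosphate for mineral, and Spp1 encodes osteopontin, a phosphoprotein of bone and calcified cartilage. Runx factors bind DNA through a Runt domain that is strengthened by Cbfb. Runx2 and Runx3 drive hypertrophy, and Mef2c acts in the same direction, while the class II histone deacetylase Hdac4 binds and restrains both Runx2 and the Mef2 proteins. Each Runx gene has a distal start, P1, and a start further downstream, P2, which give proteins with different N termini.

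The P1 starts of the 3 Runx genes share a sequence that was seen when their promoters were read, and it is shown because it is what these promoters have in common beside their peaks. Around P1, 2 copies of the RUNX core, written ACCACA on one strand and TGTGGT on the other, stood 2 bases apart. The 30 bases that hold them are given 5′ to 3′ on the strand of each gene, with the cores in capitals. They lie at chr16:92826025-92826054 on the minus strand for Runx1, at chr17:44814583-44814612 on the minus strand for Runx2 and at chr4:135120503-135120532 on the plus strand for Runx3 (RefSeq, GRCm38.p6).
Runx1 P1: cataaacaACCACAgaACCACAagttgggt
Runx2 P1: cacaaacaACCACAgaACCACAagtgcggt
Runx3 P1: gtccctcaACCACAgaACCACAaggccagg
The pair began 28 bases downstream of the Runx1 start and 23 bases downstream of the Runx2 start. In Runx3 it began 134 bases upstream of the start. The same spacing was found in 7 of 32851 RefSeq promoter windows (0.0213%), each covering 250 bases before a start and 50 after it. The other 4 windows belonged to Gm12236, Gm15462, Olfr24 and Gm16225, the last of which overlaps the Runx3 window. A single RUNX core was in 16.8% of all windows.

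Promoter peaks were called for 7 of the 10 genes in Cho 1, where 59.0% of protein-coding genes had one. In Cho 2 there were 9, against 65.9% of genes. WT had 8, against 62.6%, and deletion 9, against 68.2%. The genes without a promoter peak were Col10a1 in both Cho replicates and WT, Alpl in Cho 1, and Hdac4 in the 3 mm9 lists. For Hdac4 this followed from the annotation, as described below. With RefSeq starts added to the GENCODE starts, the counts were 8 in Cho 1, 9 in WT and 10 in deletion. Among all WT promoter peaks, those of the 8 genes called there ran from the 10.4th percentile for Spp1 to the 44.0th for Cbfb. Hdac4 is not in this range. Its WT peak at the RefSeq start, at 14.0, was above that of Cbfb, at 11.9.

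**Figure D1:**
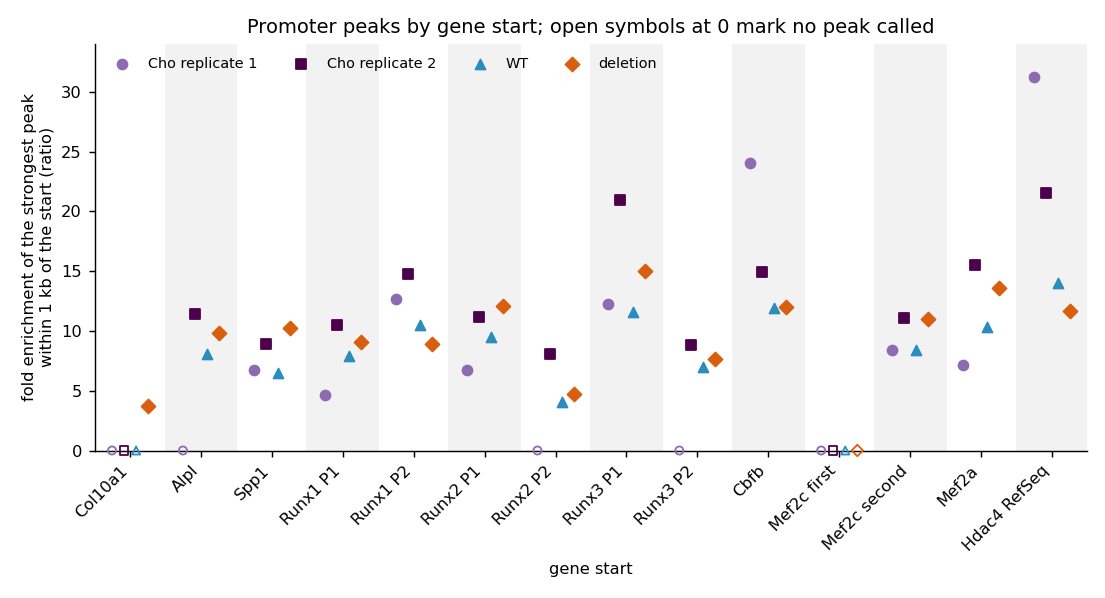
Fold enrichment (ratio, vertical axis) of the strongest peak within 1 kb of each gene start (horizontal axis) in the 4 libraries, 1 symbol per library, with open symbols at 0 where no peak was called. The start of Col10a1 has a symbol above 0 in deletion alone, at 3.69, while the RefSeq start of Hdac4 reaches 31.2 in Cho 1.

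Col10a1 (ENSMUSG00000039462.4, chr10:34109787-34116891, plus strand, mm9) had the least open promoter of the 10 genes by these lists. No peak lay within 1 kb of its start in Cho 1, Cho 2 or WT, and the deletion library had a peak of 3.69 with 5 tags at its summit, 330 bp upstream. That peak stood at the 1.04th percentile of deletion promoter peaks, and at a q-value below 1e-5 it was no longer called. WT had a lower depth than deletion, and every WT peak held at least 4 tags at its summit, so a peak of this size was near the limit of detection in WT. The nearest summit to the start lay 7468 bp upstream in Cho 1, 4253 bp upstream in Cho 2 and 27733 bp upstream in WT. The deletion list had a peak of 7.99 at 4.26 kb upstream, at the same distance as the Cho 2 peak of 9.33.

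The 250 bases upstream of the Col10a1 start (RefSeq, GRCm38.p6, chr10:34389731-34389980, plus strand) are shown because 3 of the 4 libraries had no peak within 1 kb of it. The deletion summit, 330 bp upstream, lies outside this window.
Col10a1 upstream: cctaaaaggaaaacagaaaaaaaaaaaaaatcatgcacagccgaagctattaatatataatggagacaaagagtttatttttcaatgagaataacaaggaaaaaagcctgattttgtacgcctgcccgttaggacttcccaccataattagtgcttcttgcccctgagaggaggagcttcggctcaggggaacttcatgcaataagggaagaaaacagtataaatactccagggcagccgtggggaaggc
It held no RUNX core, no MEF2 motif, written as CTA, any 4 bases and TAG, and no SOX motif, written ACAATG or ATTGTT, on either strand. The full window of 300 bases held 6 CpG dinucleotides, near the median of 7 over all promoter windows.

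The Col10a1 locus had 4 peaks in Cho 1, 7 in Cho 2, 4 in WT and 11 in deletion. Its WT density of 3.73 peaks per 100 kb was at the 34.3rd percentile of protein-coding genes. The strongest WT peak of the locus, 28.6 kb downstream of the start, had a fold enrichment of 17.8 and lay 60 bp from a start of Nt5dc1, a neighbouring gene whose body holds Col10a1, so it is a promoter of another gene. Away from any start, the site 33.3 kb upstream, in an intron of Nt5dc1, was called in every library. Its fold enrichment was 14.4 in Cho 1, 32.1 in Cho 2, 5.15 in WT and 8.61 in deletion. Both Cho values were above both genotype values, and the Cho 2 value was the highest of its locus. The WT summit held 6 tags and the deletion summit 13, and the ratio of tags over background, deletion to WT, was 1.25 (95% counting interval 0.442 to 4.0). The next distal site, 47.9 kb upstream, was at 4.41 in WT and 7.99 in deletion and had no Cho peak within 150 bp.
Col10a1 distal site at 33.3 kb upstream, chr10:34076420-34076619 (NCBIM37, plus strand): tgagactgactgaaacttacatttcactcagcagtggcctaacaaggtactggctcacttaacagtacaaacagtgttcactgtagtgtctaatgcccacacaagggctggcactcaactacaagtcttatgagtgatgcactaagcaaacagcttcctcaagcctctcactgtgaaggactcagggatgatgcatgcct
These 200 bases around the WT summit held none of the RUNX, MEF2, SOX and AP-1 motifs searched, the last being TGA, any base and TCA.

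Alpl (ENSMUSG00000028766.4, chr4:137297648-137352299, minus strand, mm9) had a peak at its most upstream start in 3 of the 4 libraries. Its fold enrichment was 11.4 in Cho 2, 8.05 in WT and 9.83 in deletion. Cho 1 had no peak within 1 kb of any Alpl start, and its nearest to one was a weak intronic peak of 3.38, 24.8 kb into the gene. A further start 26.6 kb downstream had peaks of 7.92 in Cho 2, 6.10 in WT and 6.20 in deletion. The remaining 4 Alpl starts had no peak in any library.

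The same contrast between lists was seen over the whole Alpl locus. Cho 1 had 4 peaks there, against 30 in Cho 2, 16 in WT and 35 in deletion. In density this was the 30.4th percentile of genes in Cho 1 and the 94.1st, 80.3rd and 95.8th in the others. The strongest distal site in WT, 39.8 kb upstream of the gene and between Alpl and Ece1, was at 13.6 in WT, 12.8 in deletion, 31.1 in Cho 2 and 5.07 in Cho 1. A site 48.5 kb upstream was at 10.3 in WT, 16.0 in deletion and 23.7 in Cho 2 and was not called in Cho 1. Of the 16 WT peaks at this locus, 15 had a counterpart in Cho 2 and 3 in Cho 1. The shares over the whole WT list do not stand beside these counts, so they are not read as a trait of Alpl. The Cho lists differ in build and in how background was set, and what part this plays was not tested.

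Spp1 (ENSMUSG00000029304.8, chr5:104864137-104870069, plus strand, mm9) had a peak on its start in all 4 libraries. The fold enrichment was 6.76 in Cho 1, 8.94 in Cho 2, 6.50 in WT and 10.2 in deletion, with summits 2 to 102 bp downstream of the start. These were low among promoters, at the 21.9th, 14.8th, 10.4th and 31.9th percentile. The 250 bases upstream of the start (RefSeq, GRCm38.p6, chr5:104434861-104435110, plus strand) are shown because they held a RUNX core, here in capitals, and Runx2 acts on this gene in bone cells.
Spp1 upstream: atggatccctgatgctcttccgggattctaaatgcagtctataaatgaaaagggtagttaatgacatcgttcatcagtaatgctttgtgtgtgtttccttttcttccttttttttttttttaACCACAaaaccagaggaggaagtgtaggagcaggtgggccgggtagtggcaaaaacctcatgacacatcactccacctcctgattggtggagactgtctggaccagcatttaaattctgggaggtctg

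Around this modest promoter the Spp1 locus was dense in peaks. It held 20 peaks in Cho 1, 14 in Cho 2, 15 in WT and 20 in deletion. The density of 18.9 per 100 kb in Cho 1 was at the 99.8th percentile of genes, and that of WT, 14.2 per 100 kb, at the 92.9th. Cho 1 thus had more peaks here than Cho 2, although its list was the shortest of the 4. The strongest distal site in WT, 11.3 kb downstream of the start and past the end of the gene, was at 14.9 in WT, 20.9 in deletion, 6.33 in Cho 1 and 29.1 in Cho 2. A site 27.4 kb upstream was at 14.8 in WT, 18.5 in deletion, 14.8 in Cho 1 and 20.6 in Cho 2. This site varied less between libraries than the one downstream. Of the 15 WT peaks at the locus, 9 were found in all 4 libraries, against 63 of 183 over the 10 loci, Spp1 included. No such share over the whole WT list stands beside these counts, so they are not read as a trait of this locus.

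**Figure D2:**
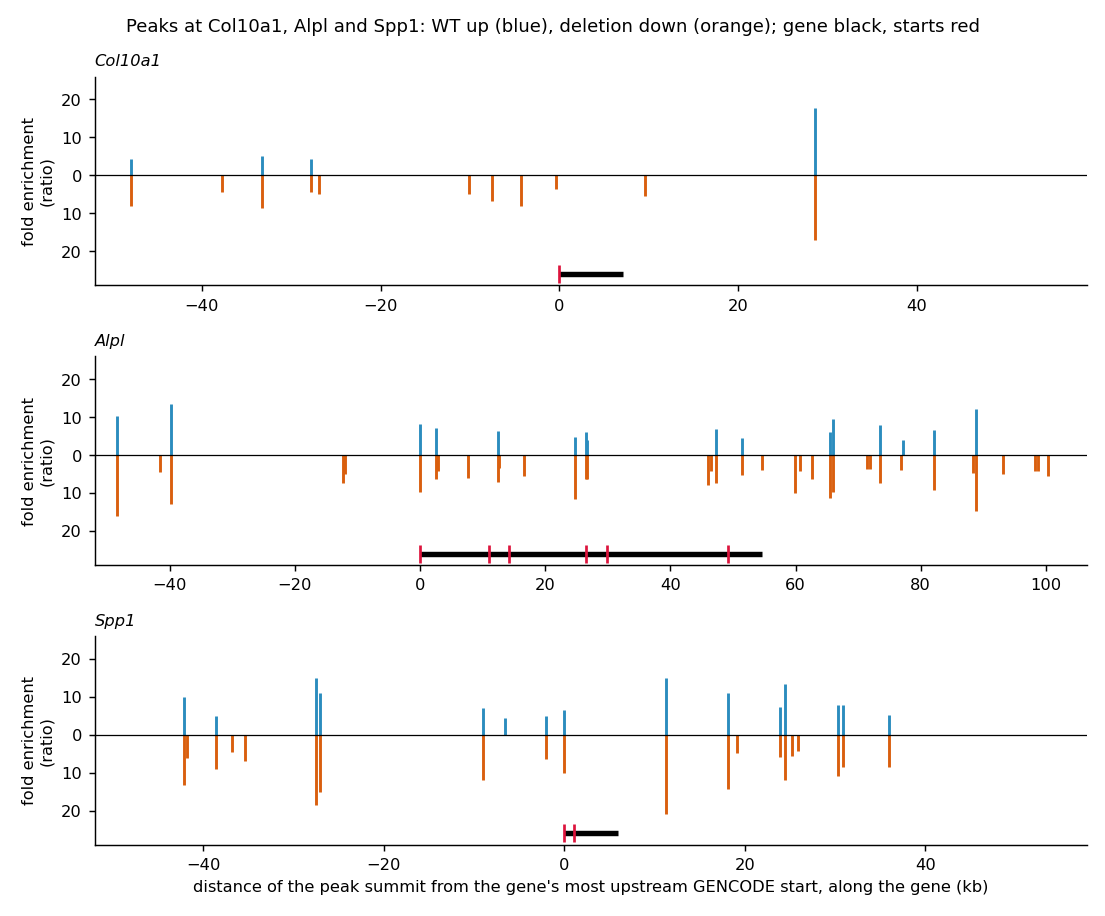
Peaks at the Col10a1, Alpl and Spp1 loci, with the distance of each summit from the most upstream GENCODE start on the horizontal axis (kb) and fold enrichment (ratio) on the vertical axis, WT above the line and deletion below it. Black bars are gene bodies and red ticks are starts. Col10a1 has no WT peak between 27.7 kb upstream and 28.6 kb downstream, while Spp1 has one on its start and its strongest at 11.3 kb.

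In WT and deletion, Runx1 and Runx2 had the most locus peaks of the 10 genes, at 33 each in WT and 57 and 59 in deletion. Their loci were also the longest, at 324.6 and 418.8 kb with flanks. In density they were at the 79.5th and 66.6th percentile of genes in WT, and at the 85.1st and 71.3rd in deletion. Each of the 3 Runx genes had a stronger and a weaker start. Runx1 (ENSMUSG00000022952.9, chr16:92601712-92826311, minus strand, mm9), known for its role in blood formation and also present in cartilage, had peaks at both starts. At P1 the fold enrichment was 4.65 in Cho 1, 10.5 in Cho 2, 7.94 in WT and 9.09 in deletion. At P2, 129 kb downstream, it was 12.7, 14.8, 10.5 and 8.87 in the same order. P2 was the higher in 3 of 4 libraries by fold enrichment and in 4 of 4 by the tags at the summit, which were 15 at P1 and 42 at P2 in WT and 30 and 56 in deletion. Fold enrichment divides the tags by the local background, which in deletion was higher at P2 than at P1.

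Runx2 (ENSMUSG00000039153.9, chr17:44632936-44951746, minus strand, mm9), the main Runx factor of bone and of hypertrophic cartilage, showed the opposite order. P1 was at 6.76 in Cho 1, 11.2 in Cho 2, 9.51 in WT and 12.1 in deletion. P2, 78.1 kb downstream, was not called in Cho 1. Its strongest peak within 1 kb was at 8.04, 4.08 and 4.72 in the others. The Cho 2 peak is another site, 654 bp downstream of P2 and 19 bp upstream of a further start at 80.1 kb. At the site of the WT and deletion peaks Cho 2 was at 5.52. P1 was the higher in 4 of 4 libraries by fold enrichment. By tags it was the higher in 3 of 4, since Cho 2 had 65 tags at P1 and 88 at the peak 654 bp downstream of P2. This order holds only for peaks within 1 kb of a start. A peak 1439 bp upstream of P2 was at 9.71 in Cho 1, above P1 there. In WT and deletion that peak was at 7.87 and 6.46, below P1. It had more tags than P1 in both, 24 against 16 in WT and 33 against 29 in deletion.

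Runx3 (ENSMUSG00000070691.4, chr4:134676567-134733905, plus strand, mm9), which acts with Runx2 in chondrocyte maturation, also had its stronger peak at P1. P1 was at 12.2 in Cho 1, 20.9 in Cho 2, 11.6 in WT and 15.0 in deletion, with summits 94 to 132 bp upstream of the start, near the tandem RUNX cores shown above. P2, 31.9 kb downstream, was not called in Cho 1. Its strongest peak within 1 kb was at 8.84, 6.96 and 7.69 in the others. The Cho 2 peak is another site, 350 bp downstream of the last start joined in P2. At the site of the WT and deletion peaks Cho 2 was at 4.55. P1 was the higher in 4 of 4 libraries by both measures. The P2 windows of Runx1 and Runx3 held 35 and 45 CpG dinucleotides, at the 93.8th and 98.4th percentile of promoter windows. Those of P1 held 2 in Runx1, 2 in Runx2 and 8 in Runx3, against a median of 7 over all windows. The stronger start thus had more CpG than the weaker one in Runx1 and fewer in Runx3.

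**Figure D3:**
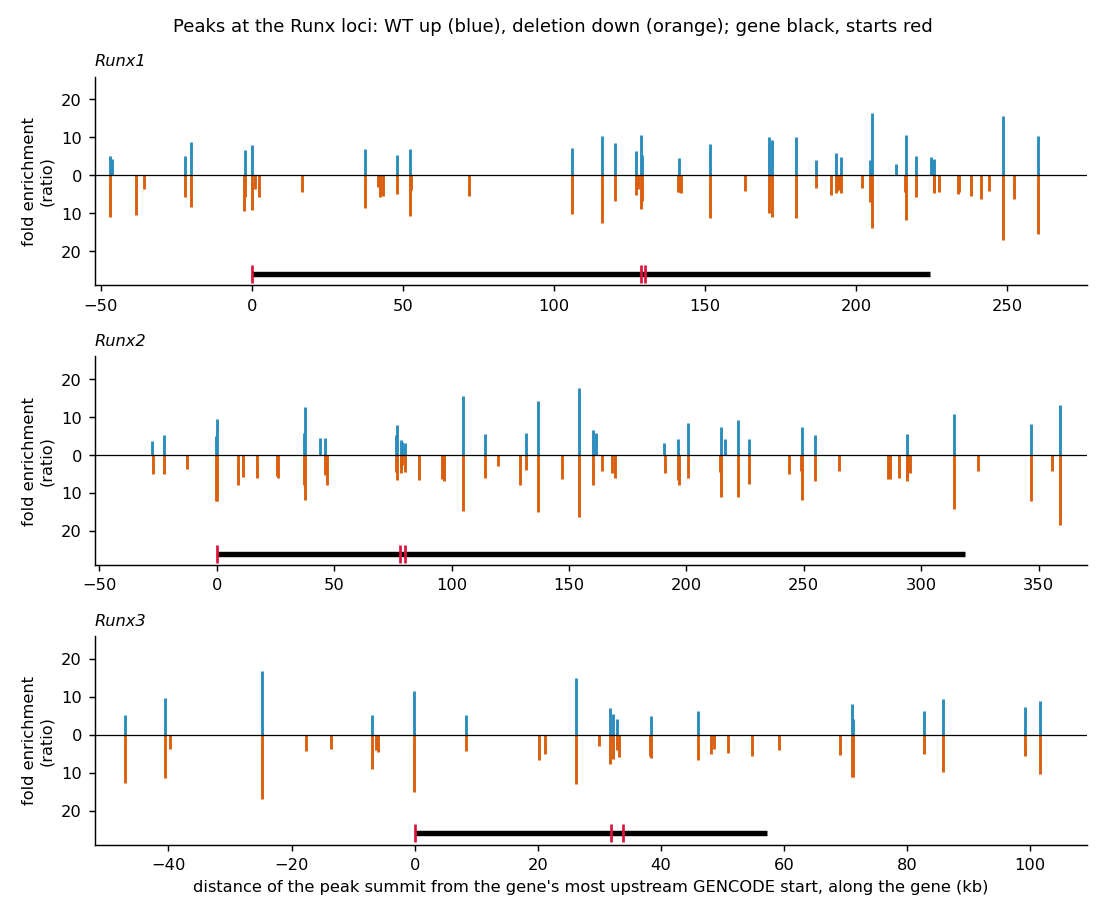
Peaks at the Runx1, Runx2 and Runx3 loci against distance from P1 (horizontal axis, kb), with fold enrichment (ratio, vertical axis) of WT above the line and of deletion below it. Black bars are gene bodies and red ticks are starts. P1 is at 0, and the tallest WT lines are inside Runx2 at 154 kb (17.8), upstream of Runx3 at 24.7 kb (16.7) and inside Runx1 at 205 kb (16.5), none of them at a Runx start.

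The strongest distal sites of the Runx loci exceeded the fold enrichment of their promoters in WT. They were picked as the highest of many distal peaks, so this follows largely from the choice and was not tested. By tags in WT, the Runx1 sites had 40 and 22, below the 42 at its P2. The Runx2 and Runx3 sites had more tags than their starts. In Runx1 the site 205 kb from P1, in an intron, was at 22.4 in Cho 1, 19.1 in Cho 2, 16.5 in WT and 13.8 in deletion. A site 248.5 kb from P1, past the 3′ end of the gene, was at 29.6 in Cho 2, 15.8 in WT and 17.0 in deletion and not called in Cho 1. The sequence around the intronic site held 2 AP-1 motifs within 300 bases of genome.

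In Runx2 the site 154 kb from P1 was at 20.4 in Cho 2, 17.8 in WT and 16.2 in deletion, and the site at 137 kb was at 28.7, 14.2 and 14.9. Neither was called in Cho 1. Both lie in introns. The first held a match to the MEF2 pattern searched, in capitals below. That pattern leaves its inner bases free, here GACC, and binding of Mef2 proteins was not tested.
Runx2 distal site at 154 kb, chr17:44797197-44797396 (NCBIM37, plus strand): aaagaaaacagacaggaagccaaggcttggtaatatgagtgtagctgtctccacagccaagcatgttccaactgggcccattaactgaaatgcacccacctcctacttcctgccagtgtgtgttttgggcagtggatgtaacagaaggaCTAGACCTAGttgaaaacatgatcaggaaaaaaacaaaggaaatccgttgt

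In Runx3 the site 24.7 kb upstream of P1 was at 13.5 in Cho 1, 28.5 in Cho 2, 16.7 in WT and 17.1 in deletion, and the intronic site 26.2 kb downstream was at 5.91, 22.1, 14.9 and 13.0. Each of these was called in all 4 libraries. The intronic site held the longer RUNX motif TGTGGTTT, found in 5.57% of all distal WT peaks. By density the Runx3 locus was at the 97.6th percentile of genes in Cho 2, the 85.0th in WT and the 93.4th in deletion, and with 7 peaks at the 51.8th in Cho 1.

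Cbfb (ENSMUSG00000031885.7, chr8:107694574-107741886, plus strand, mm9), the common partner of the Runx proteins, has a single start. The Cbfb promoter peak was at 24.1 in Cho 1, 14.9 in Cho 2, 11.9 in WT and 12.0 in deletion. WT and deletion were nearly the same, with 97.1 and 92.6 times the library background at the summit. The distal site 49.5 kb upstream was at 11.0 in Cho 1, 36.3 in Cho 2, 15.0 in WT and 20.7 in deletion, and an intronic site 16.0 kb downstream was at 23.6, 24.1, 11.2 and 17.7.

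Mef2c (ENSMUSG00000005583.8, chr13:83643033-83806684, plus strand, mm9), a MADS box factor that promotes hypertrophy, had no peak at its most upstream start in any library. Starts 19.6 kb and 20.9 kb downstream of it, which lie 1.32 kb apart, were open in all 4. At the second of these the fold enrichment was 8.45 in Cho 1, 11.1 in Cho 2, 8.44 in WT and 11.0 in deletion. A RefSeq start 69.7 kb downstream had a peak in Cho 2 (9.77) and deletion (5.53). Its strongest distal WT sites lay in introns. The one 28.2 kb from the upstream start was at 11.0 in Cho 1, 35.7 in Cho 2, 13.6 in WT and 16.9 in deletion. The one at 100 kb was at 13.9, 28.3, 13.5 and 19.3, and is printed because it held RUNX and MEF2 motifs together, here in capitals.
Mef2c distal site at 100 kb, chr13:83743247-83743446 (NCBIM37, plus strand): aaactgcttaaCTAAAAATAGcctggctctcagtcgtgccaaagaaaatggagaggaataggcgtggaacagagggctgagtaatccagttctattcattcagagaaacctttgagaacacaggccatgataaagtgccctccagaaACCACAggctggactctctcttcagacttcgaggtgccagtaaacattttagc

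Mef2a (ENSMUSG00000030557.9, chr7:74376049-74517744, minus strand, mm9), a related factor present in many tissues, had a promoter peak of 7.18 in Cho 1, 15.5 in Cho 2, 10.3 in WT and 13.6 in deletion. Its 2 internal GENCODE starts had no peak in any library. The strongest WT peak of the locus, at 23.8, lay 50 bp from a start of the neighbouring 1700112J16Rik. Away from any start, the site 18.1 kb upstream was at 29.6 in Cho 1, 22.8 in Cho 2, 13.5 in WT and 18.6 in deletion. It is printed because 3 of the motifs searched met there, a RUNX core and overlapping SOX and AP-1 motifs, in capitals. The site 129 kb downstream of the start, in an intron, was lower, at 8.02, 15.7, 9.54 and 9.62.
Mef2a distal site at 18.1 kb upstream, chr7:74535751-74535950 (NCBIM37, plus strand): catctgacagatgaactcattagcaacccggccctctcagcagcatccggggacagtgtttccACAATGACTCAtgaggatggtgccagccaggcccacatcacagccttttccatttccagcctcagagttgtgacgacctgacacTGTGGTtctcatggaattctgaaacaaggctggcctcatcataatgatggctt

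Hdac4 (ENSMUSG00000026313.8, chr1:93825362-94044970, minus strand, mm9), the deacetylase that holds back Runx2 and Mef2 proteins, had no peak at any of its 3 GENCODE starts. Its RefSeq start, found by sequence in NCBIM37 at position 94076918 of chromosome 1, lies 31.9 kb upstream of the most upstream of those starts. There the fold enrichment was 31.2 in Cho 1, 21.6 in Cho 2, 14.0 in WT and 11.7 in deletion, the highest promoter value of the 10 genes in both Cho replicates and in WT. The start was chosen from the RefSeq table after the values were seen. Its window held 32 CpG dinucleotides, at the 91.4th percentile. An intronic site 68.0 kb downstream of the GENCODE start was at 9.29 in Cho 1, 36.1 in Cho 2, 16.0 in WT and 17.4 in deletion, and the site at 192 kb was at 16.9, 27.4, 15.4 and 21.5.

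Over the Cho replicates, mean promoter fold enrichment was 19.5 ± 6.46 (SD, n = 2) for Cbfb, 16.6 ± 6.13 for Runx3, 13.7 ± 1.51 for Runx1, 11.3 ± 5.86 for Mef2a, 10.1 ± 2.39 for Mef2c, 8.98 ± 3.15 for Runx2 and 7.85 ± 1.55 for Spp1. The order holds only the genes called in both replicates. Hdac4 is left out because Cho 1 was read with GENCODE starts. At its RefSeq start it was at 31.2 in Cho 1 and 21.6 in Cho 2. Neighbours in this order differed by less than the larger of their SDs. The Cho values themselves did not keep one order, since Cbfb was higher in Cho 1 and the other 6 genes in Cho 2. Nothing in the labels says that the Cho replicates came from separate litters, and the study states biological replicates.

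In all, the 10 loci held 136 peaks in Cho 1, 306 in Cho 2, 183 in WT and 340 in deletion. Their peak density was above the median of protein-coding genes for 6, 8, 8 and 9 genes in the same order. The median fold enrichment at the loci was close to that of the whole list, at 6.91 against 6.86 in WT and 6.03 against 6.25 in deletion. Mef2a was below the gene median in every library, and Runx1, Runx2, Runx3, Cbfb, Mef2c and Spp1 were above it in every library.

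**Figure D4:**
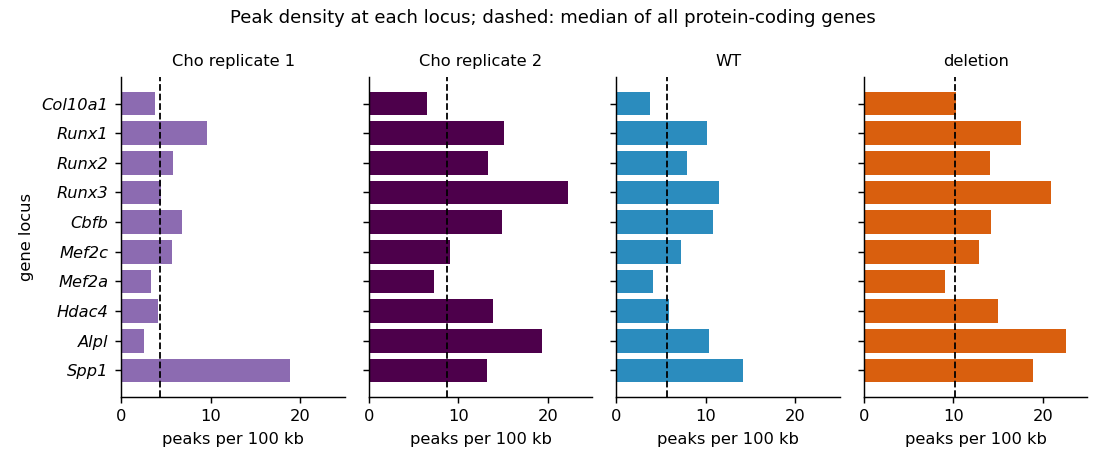
Peaks per 100 kb (horizontal axis) at the locus of each gene, 1 panel per library, with the median of all protein-coding genes as a dashed line. Alpl is short in Cho 1 and among the longest bars in the other panels, and Spp1 has the longest bar in Cho 1 (18.9) and WT (14.2).

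WT and deletion shared most of the WT peaks at these genes. Of 183 WT locus peaks, 171 overlapped a deletion peak (93.4%, 95% exact interval 88.8% to 96.6%), against 95.9% of all WT peaks. In the other direction, 164 of the 340 deletion locus peaks were met by a peak of WT (48.2%, 42.8% to 53.7%), against 49.4% of all deletion peaks. Such intervals cover counting error only. By gene, all WT peaks of Col10a1, Runx3, Cbfb, Mef2c and Mef2a were found in deletion, while Runx1 lacked 4 of 33, Runx2 5 of 33, and Hdac4, Alpl and Spp1 lacked 1 each.

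At the 171 shared peaks the fold enrichment was higher in deletion at 123, or 71.9%, against 75.3% of all shared peaks. The median log2 ratio, deletion to WT, was 0.25, against 0.28 over all 87274 shared peaks. As the median of tags over background it was 0.01, against -0.01 over all shared peaks. On both scales the loci were close to the list as a whole. By gene the median log2 ratio of fold enrichment ran from 0.12 at Runx1 to 0.45 at Spp1 and Mef2a. At least 2-fold higher values in deletion were found at 7 shared peaks (4.09%), against 7.79% of all shared peaks, and 2-fold lower values at 0, against 0.0710%. For 4 of the 7, at Runx2, Runx3, Mef2a and Hdac4, the deletion peak also overlapped a stronger WT peak, against which it was less than 2-fold higher, or at Hdac4 lower. With each deletion peak matched once, to the strongest of its WT peaks, 3 of 164 were at least 2-fold higher (1.83%), against 5.80% of 83116 peaks.

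**Figure D5:**
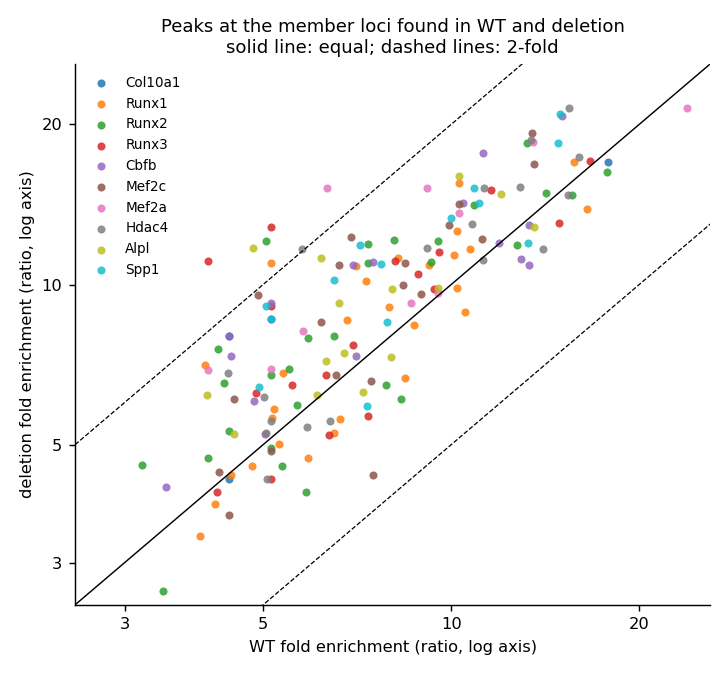
Fold enrichment (ratio) in deletion (vertical log axis) against WT (horizontal log axis) at the 171 locus peaks found in both libraries, coloured by gene, with a solid line for equal values and dashed lines for 2-fold differences. Of the points, 123 lie above the solid line, 7 on or above the upper dashed line and 0 on or below the lower one.

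The largest differences were at weak WT peaks. A site 71.3 kb downstream of the Runx3 start went from 4.09 in WT to 11.1 in deletion, a log2 ratio of 1.44. The same deletion peak also overlapped a stronger WT peak at 71.0 kb, with 8.13, and against that one the log2 ratio was 0.44. The ratio of tags over background was 2.99 (95% counting interval 1.13 to 9.98) against the weaker WT peak and 1.36 (0.650 to 3.05) against the stronger one. A site 47.0 kb upstream of Runx3 was at 5.15 in WT and 12.8 in deletion, a log2 ratio of 1.32. An Alpl site 24.8 kb into the gene was at 4.82 and 11.7, a log2 ratio of 1.28. For these last sites the tag ratio was 2.11, with an interval of 0.830 to 6.36 that includes 1. In the other direction a Mef2c site at 99.8 kb was at 7.51 in WT and 4.38 in deletion, a log2 ratio of -0.78, close beside the stronger site at 100 kb printed above, which was higher in deletion. Runx2 sites at 132 kb and 201 kb had log2 ratios of -0.52 and -0.45. The tag interval of the Mef2c site, 0.163 to 0.995, left out 1 narrowly, and since these sites are the extremes of 171 peaks no test applies.

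Peaks found in one genotype library were mostly weak. The 12 WT peaks without a deletion peak reached at most 5.82, at an intronic Runx2 site 162 kb from P1, and the next were a Runx1 site at 225 kb with 4.85 and an Spp1 site 6.53 kb upstream with 4.53. The 176 deletion peaks without a WT peak had a median of 4.81, against 9.39 for deletion peaks with one. The strongest were a Mef2a site at 85.3 kb with 12.9, a Runx1 site 38.3 kb upstream of P1 with 10.5 and a Mef2a site at 173 kb with 10.5. Each of these 3 had a Cho 2 peak at the same distance, at 9.47, 7.10 and 16.2. Of the 176, 96 had a summit within 150 bp in either Cho replicate. No such share over the whole deletion list stands beside this count, so it is not read as a trait of these loci. Deletion had the higher depth, and the part of depth in these counts was not tested. The alternative lists of equal length level the numbers of peaks and do not test depth.

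Of the 183 WT locus peaks, 144 lay over 1 kb from any start, 91 of them in introns, 1 in an exon and 52 between genes. Motifs were counted in the 300 bases around each summit on both strands. The RUNX core was in 31.9% of the 144 (24.4% to 40.2%), against 30.0% of 67846 distal WT peaks. The longer RUNX motif was in 6.94% against 5.57%, and the MEF2 motif in 4.86% against 4.59%. The SOX motif was in 17.4% (11.6% to 24.6%) against 18.4%, and the AP-1 motif in 23.6% (16.9% to 31.4%) against 27.1%. Each background share lay within the interval of the loci, so no motif was found more or less often at these genes than that interval allows. In Cho 1 the AP-1 motif was in 44.0% of 116 distal locus peaks (34.8% to 53.5%), against 46.0% of all its distal peaks.

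Among the 16 RefSeq promoter windows of the 10 genes, 4 held a RUNX core, those of P1 of the 3 Runx genes and the upstream start of Spp1. The SOX motif was in 0 of 16, against 18.7% of all windows. Mef2a had the MEF2 motif in its own promoter window, as did 3.69% of all windows.

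Of 22 other genes of hypertrophy and its control, 18 had a promoter peak in Cho 1 and in WT, and 20 in deletion. In Cho 2 it was 17 of the 17 present in the RefSeq table. Of all protein-coding genes, 59.0% had one in Cho 1, 65.9% in Cho 2, 62.6% in WT and 68.2% in deletion. The genes were picked by name, and no test was run on these counts. Foxa3, a factor of hypertrophic chondrocytes, was at 20.7 in Cho 1, 16.3 in Cho 2, 15.5 in WT and 15.6 in deletion. Phospho1, a phosphatase of mineralising cells, was at 11.8, 17.6, 17.7 and 17.1. Both were above each of the 10 genes in WT. Ihh, the hedgehog ligand of prehypertrophic cells, and Ibsp, bone sialoprotein, had a peak in Cho 2 alone, at 4.52 and 5.07. Sp7, the osterix factor of bone cells, had one in deletion, at 4.16, and none in Cho 1 or WT, and was not in the table for Cho 2. Mmp13, the collagenase of late hypertrophic cartilage, was at 4.65, 10.1, 5.88 and 9.22.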

How the data were processed

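Per the study methods and the labels, the authors trimmed paired reads with fastp, aligned them with Bowtie2 2.4.4, removed duplicates with Picard and called peaks with MACS2 2.2.4 at a q-value of 0.05, 1 list per library. The methods name mm9 for all lists. Cho 2 holds sequences that mm9 lacks and was read as GRCm38. The deposited values are fold enrichment (a ratio), −log10 p-value, −log10 q-value and a score of 10 times the −log10 q-value. In Cho 1, 11573 entries were further summits of a listed interval, and the strongest per interval was kept. Its background is constant and includes mitochondrial tags.

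Starts came from GENCODE (NCBIM37) and, for Cho 2, RefSeq (GRCm38.p6). Starts within 500 bp were joined. All 16 RefSeq starts of the 10 genes were found in NCBIM37 by sequence. Whole numbers of tags at each summit were solved by a Poisson model from the fold enrichment and −log10 p-value, for 99.95%, 98.3%, 100% and 100% of peaks. On simulated data 99.98% or more were recovered. Library background is the most frequent solved background. Peaks were shared at 1 bp overlap, or within 150 bp of summits for Cho. Genes, lists and motifs were chosen with earlier results of these data known, and the tandem motif and CpG counts after the sequences were read. Named sites were the promoter peaks, the 2 strongest distal WT peaks of each gene, and the extremes between WT and deletion, 3 of each kind. Python 3.11.15, pandas 2.3.3 and scipy 1.17.1 were used.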

Additional observations from a re-analysis of the deposited data

How the results depend on the processing

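Alternatives covered windows of 0.5 and 2 kb, stricter q-values, equal numbers of strongest peaks (76242 per list), flanks of 20 and 100 kb, 50% overlap, other measures and other motif windows. RefSeq starts and the order of Runx starts by tags were added after seeing the data. The count of genes with a promoter peak stayed at 7 or 8 in Cho 1, 9 in Cho 2, 8 or 9 in WT and 8 to 10 in deletion. At q below 1e-5 the loci held 90 peaks in Cho 1. With equal numbers of peaks they held 170 in Cho 2 and 139 in deletion, the share of WT locus peaks found in deletion was 81.4% and that of deletion peaks found in WT 79.1%. At 50% overlap the latter was 40.0%. No shares over all peaks at these settings stand beside these values, so they are not read as particular to these loci. The median log2 ratio, deletion to WT, was 0.76 with −log10 q-values, as over all shared peaks, and 0.011 with tags at the summit over library background. With equal numbers of peaks WT held 140. Cutting the lists to the same length levels their totals, so the loss of the excess of deletion over WT follows largely from the cut. By tags the order of starts turned for Runx1 in deletion and for Runx2 in Cho 2, there through the peak 654 bp downstream of P2. With each deletion peak matched once, another choice made after seeing the data, the median log2 ratio was 0.24. Without either Cho library, the 7 promoter means ran from 6.76 to 24.1. With a 2 kb window the Spp1 mean over the Cho replicates was 11.6. No paired analysis was possible because each genotype has 1 library. Depth limits weak peaks, as every WT and deletion peak held at least 4 tags at its summit.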

Other observations

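Several of the tallest peaks at these loci lay at starts of other genes. Inside Runx2, a peak 37.7 kb from P1 and 100 bp from a start of Supt3h, a transcription factor subunit gene, was at 11.0 in Cho 1, 22.3 in Cho 2, 12.8 in WT and 11.9 in deletion. Another 105 kb from P1, 212 bp from a start of 9530072K05Rik, was at 13.9, 22.0, 15.6 and 14.8. Both were above the Runx2 P1 peak in WT, Cho 1 and Cho 2. At Spp1, the start of Pkd2, which encodes polycystin-2, had a peak 24.4 kb downstream at 10.6, 12.4, 13.3 and 12.0, above the Spp1 promoter in every library.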
